A study of Mus musculus with 6 samples.

Results

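The transcripts of 10 tubulin genes were followed in cultured bone marrow macrophages on their way to becoming osteoclasts. They comprise the 6 beta-tubulin genes Tubb3, Tubb2a, Tubb2b, Tubb4b, Tubb5 and Tubb6 and the 4 alpha-tubulin genes Tuba1a, Tuba1b, Tuba1c and Tuba4a. The genes were taken by symbol from the 26699 genes listed for every library, and the set was selected on measured values: it was drawn up around the higher read count of Tubb3 in cells with a conditional deletion of the metal transporter gene Slc11a2, to place that difference beside the other isotypes. The difference between genotypes is therefore given for these 10 genes as a description, without a p-value; the number that passed the fit over all genes is given once, beside the share of all genes, and supports nothing. All 10 had a row in every library, and all 10 passed the filter on low counts.

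Polyadenylated RNA was sequenced from 3 cKO and 3 control libraries. The cKO cells came from LysmCre-Slc11a2flox/flox mice, in which Cre recombinase is driven from the lysozyme M gene, Lyz2, in cells of the myeloid lineage. The control cells came from Slc11a2flox/flox mice, which share the floxed alleles and carry no Cre, so that effects of Slc11a2 loss, of Cre itself and of the altered Lyz2 allele cannot be told apart. The mice of both genotypes were 8 weeks old; their marrow cells grew in 10 ng/mL M-CSF, on which macrophages depend, and after passage were kept for 48 h in 30 ng/mL M-CSF plus 50 ng/mL RANKL, the signal for osteoclast formation. The labels do not tie libraries to separate mice or cultures, and p-values therefore measure only a spread between libraries that may be technical. In bulk RNA, fewer cells of a type and less RNA per cell cannot be told apart.

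Alpha- and beta-tubulin pair as dimers that polymerise into microtubules, the tracks along which motor proteins move cargo and the fibres of the mitotic spindle. Each subunit is encoded by several genes whose protein products, the isotypes, differ mostly in the acidic tail at the carboxyl end, where many microtubule-binding proteins dock and where enzymes add or remove glutamate, glycine and tyrosine. Tubb3 encodes class III beta-tubulin, known chiefly from neurons and widely used to stain them, whereas Tubb5, Tubb4b, Tuba1b and Tuba1c are expressed in most tissues. In osteoclasts, microtubules position podosomes and carry the vesicles that form the ruffled border.

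The tail is encoded at the end of the coding sequence. The last 66 coding bases, stop codon included, are shown for Tubb3 and 4 other beta-tubulins, so that the Tubb3 tail can be read beside theirs. Tubb6 is not shown. They are the reference sequence of GENCODE M21 transcripts on GRCm38, read 5′ to 3′. The whole coding sequences were aligned with that of Tubb5, the most abundant beta-tubulin transcript here. Capitals mark bases that differ from Tubb5 or stand opposite a gap in it.
Tubb3: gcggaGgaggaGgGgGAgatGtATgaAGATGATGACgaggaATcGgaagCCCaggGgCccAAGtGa
Tubb2a: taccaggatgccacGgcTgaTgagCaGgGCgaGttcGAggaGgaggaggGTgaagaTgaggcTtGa
Tubb2b: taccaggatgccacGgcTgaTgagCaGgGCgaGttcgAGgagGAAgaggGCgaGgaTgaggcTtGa
Tubb4b: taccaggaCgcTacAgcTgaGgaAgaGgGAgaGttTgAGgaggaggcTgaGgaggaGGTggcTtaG
Tubb5: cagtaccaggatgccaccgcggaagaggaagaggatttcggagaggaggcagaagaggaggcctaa
In this stretch 30 of 66 bases were in capitals for Tubb3, 20 for Tubb4b, 19 for Tubb2b and 16 for Tubb2a. These counts hold both substituted bases and bases opposite a gap, which were not counted apart. With the stop codon, the whole coding sequence has 1353 bases in Tubb3 and 1335 in Tubb5. It has 1338 in Tubb2a, Tubb2b and Tubb4b. Over the whole coding sequence Tubb3 was identical to Tubb5 at 82.5% of aligned bases and to Tubb2a at 84.3%, and its highest identity was with Tubb6, at 86.5%, while Tubb2a and Tubb2b were identical to each other at 96.5%.

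Over the whole coding sequence Tuba1a, Tuba1b and Tuba1c were identical at 97.6% to 98.4% of aligned bases, and Tuba4a was identical to these 3 at 85.3% to 85.6%.

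How far reads can be assigned to a single isotype was described from the annotated transcripts. Of all 50-base windows of the Tubb3 transcript, 0 of 1819 occurred in a transcript of another gene, and the same held for 0 of 1769 windows of 100 bases. Among the other beta-tubulins the share of 50-base windows found elsewhere was 0.1% for Tubb5, 39.3% for Tubb2b, 49.6% for Tubb2a and 55.5% for Tubb4b. Tubb2a and Tubb2b shared windows mainly with each other, and Tubb4b with its pseudogene Tubb4b-ps1, which had 3.11 to 4.13 CPM, read counts scaled to a common library total, in cKO libraries and 3.23 to 4.78 CPM in control libraries. The shares were 75.5% for Tuba1a, 83.1% for Tuba1b and 61.0% for Tuba1c, which share mainly with one another and with pseudogenes. For Tuba4a it was 48.8%, nearly all from Stk16, a kinase gene that overlaps it on the opposite strand. How reads with several possible origins were counted is not stated in the labels or headers used here, so the single values of Tuba1a, Tuba1b and Tuba1c, of Tubb2a and Tubb2b, and of Tubb4b are uncertain, and sums are also given for the Tuba1 genes and for Tubb2a with Tubb2b.

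**Figure D1:**
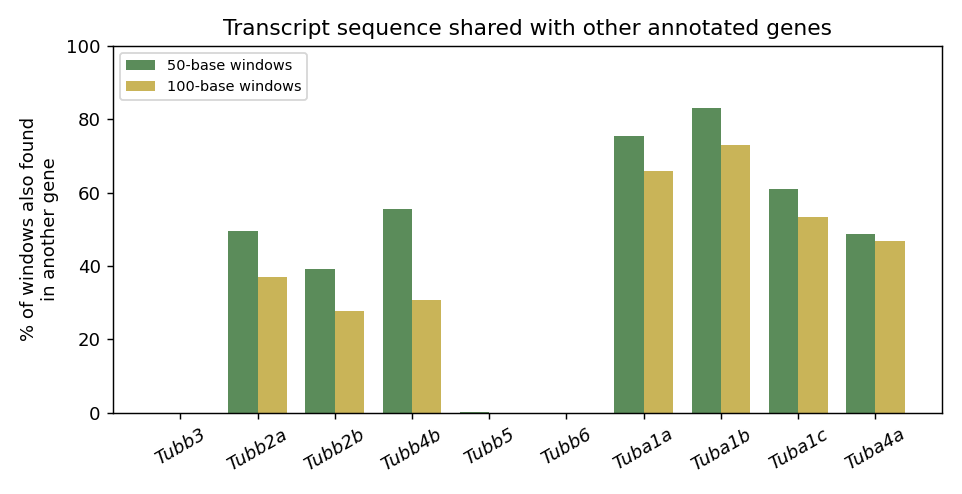
Share of transcript windows of 50 and 100 bases that also occur in a transcript of another annotated gene, in percent (vertical axis), for each tubulin gene (horizontal axis). Tubb3 and Tubb6 had 0 shared windows at both lengths, while Tuba1b had the highest share, 83.1% at 50 bases.

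All 6 libraries were deeply sequenced, with totals of 49720701 to 55279336 counts in cKO and 52989755 to 57797282 counts in control libraries. The labels were checked first. Slc11a2, which encodes the iron transporter DMT1, had 78.3, 82.8 and 87.4 CPM in cKO libraries and 119, 110 and 118 CPM in control libraries (a log2 difference of -0.48 ± 0.06 SE, adjusted p = 0.00219 by edgeR's quasi-likelihood test); which exons are floxed is not stated in the labels or headers used here. Lyz2, the gene that carries Cre, fell as well (-1.14 ± 0.08, adjusted p = 9.392e-06). Markers of the cells were abundant: the osteoclast protease gene Ctsk had 1372 to 1966 CPM in cKO and 1835 to 2398 CPM in control libraries, and the macrophage receptor gene Csf1r had 2250 to 2545 CPM in cKO and 2293 to 2717 CPM in control libraries. Of the 16843 genes tested, 407 passed an adjusted p of 0.05, of which 229 were higher and 178 lower in cKO cells, and the median log2 fold change was 0.0015.

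Tubb3 stood on chromosome 8 at 123411424 to 123422015 on the plus strand of mm10 (ENSMUSG00000062380). It had 369, 564 and 370 reads in the cKO libraries and 184, 180 and 181 reads in the control libraries. After scaling by library size these were 7.32, 10.1 and 6.94 CPM in cKO cells and 3.54, 3.14 and 3.16 CPM in control cells. Every cKO library lay above every control library, with cKO replicate 2 the highest. The fitted log2 fold change was 1.31 ± 0.18 (SE, 3 libraries of each genotype), a 2.48-fold higher level in cKO cells. It ranked 251 by log2 fold change among the 16843 genes tested. Tubb3 remained a low-abundance transcript in both genotypes, with 3.78 ± 0.85 FPKM, a read level corrected for transcript length and library size, in cKO cells and 1.51 ± 0.09 FPKM in control cells (mean ± SD, n = 3).

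**Figure D2:**
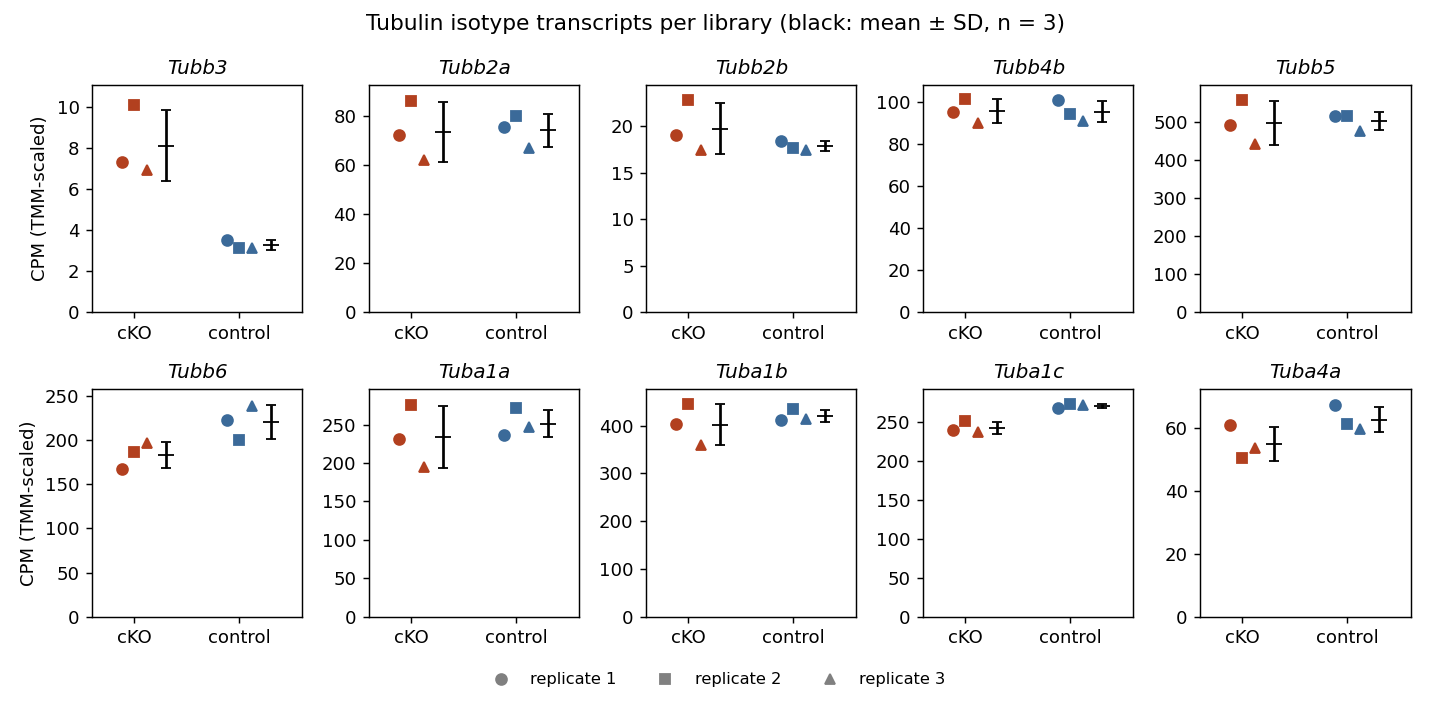
CPM of each tubulin gene after TMM scaling (vertical axes, each from 0) in the 3 cKO and 3 control libraries (horizontal axes); symbols mark the replicate and black bars the mean ± SD. The 3 cKO points of Tubb3 lie between 6.94 and 10.1 CPM, above the control points at 3.14 to 3.54 CPM, while for most other isotypes the genotypes overlap.

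The other 9 isotypes had log2 fold changes between -0.27 and 0.14, with a median of -0.06, so that Tubb3 lay 1.37 above their median. Of these 9, 7 had a negative and 2 a positive value. Among all genes tested, 2.42% passed the adjusted p of 0.05 and 22.5% had libraries that did not overlap between genotypes. By edgeR's fit Tubb3 was the only isotype of the 10 to pass. DESeq2, which called 800 genes in all, called 2 of the 10, Tubb3 and Tubb6. With replicate number as a block, edgeR called 673 genes in all and the same 2 isotypes. Libraries did not overlap for 3 of 10, namely Tubb3 (higher in cKO) and Tubb6 and Tuba1c (lower in cKO). Since Tubb3 was picked on this contrast, nothing is read from these counts.

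Among the abundant beta-tubulins, Tubb5, the main beta-tubulin of dividing and non-neuronal cells (chromosome 17, 35833921 to 35838306, minus strand), had 493, 557 and 442 CPM in cKO libraries and 514, 516 and 475 CPM in control libraries. The groups overlapped, and the log2 fold change was -0.01 ± 0.08. Tubb4b (chromosome 2, 25222160 to 25224702, minus strand), the other widely expressed beta-tubulin, had 95.0, 101 and 90.0 CPM in cKO libraries and 101, 94.0 and 90.8 CPM in control libraries. Its values overlapped as well, with a log2 fold change of 0.0031 ± 0.064.

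The neighbouring pair Tubb2a and Tubb2b, which are prominent in brain, lie on chromosome 13 at 34074274 to 34078007 and 34126748 to 34130466, both on the minus strand. Tubb2a had 72.1, 86.1 and 62.0 CPM in cKO libraries and 75.5, 80.0 and 66.9 CPM in control libraries, with full overlap (-0.01 ± 0.12). Tubb2b had 19.1, 22.7 and 17.4 CPM in cKO libraries and 18.4, 17.7 and 17.5 CPM in control libraries (0.14 ± 0.11). The groups overlapped because cKO replicate 3 lay below the control libraries. The sum of both genes was 93.1 ± 14.8 CPM in cKO cells and 92.0 ± 6.87 CPM in control cells (SD, n = 3).

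Tubb6, a beta-tubulin with a broad tissue range (chromosome 18, 67390717 to 67402749, plus strand), had 167, 187 and 197 CPM in cKO libraries and 223, 201 and 238 CPM in control libraries. Every cKO library lay below every control library, by a log2 fold change of -0.27 ± 0.08. Tubb6, the closest relative of Tubb3 in coding sequence here, had the lowest log2 fold change of the set, and Tubb3 the highest.

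Of the alpha-tubulins, Tuba1a (chromosome 15, 98949837 to 98953703, minus strand), which is strongly expressed in developing neurons, had 231, 275 and 195 CPM in cKO libraries and 237, 271 and 247 CPM in control libraries (-0.11 ± 0.12). Tuba1b (chromosome 15, 98931425 to 98934565, minus strand) had 403, 445 and 359 CPM in cKO libraries and 413, 435 and 414 CPM in control libraries (-0.06 ± 0.07). In both, the cKO libraries spread on either side of the control libraries. A predicted gene, Gm49450, overlaps Tuba1a and Tuba1b on the same strand and had 22.3, 34.2 and 9.47 CPM in cKO libraries and 29.2, 23.2 and 0 CPM in control libraries. Tuba1c (chromosome 15, 99029891 to 99038110, plus strand) had 240, 252 and 237 CPM in cKO libraries and 268, 273 and 273 CPM in control libraries, without overlap (-0.16 ± 0.05). The 3 Tuba1 genes together gave 879 ± 90.9 CPM in cKO cells and 944 ± 31.9 CPM in control cells, and these sums overlapped between genotypes.

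Tuba4a (chromosome 1, 75214228 to 75219865, minus strand), the alpha-tubulin known for a gene-encoded tail without the terminal tyrosine, had 61.0, 50.5 and 53.7 CPM in cKO libraries and 67.4, 61.2 and 59.6 CPM in control libraries. The highest cKO library overlapped the control range, and the log2 fold change was -0.19 ± 0.08. Stk16, its overlapping neighbour on the other strand, had 26.2 to 31.8 CPM in cKO and 26.4 to 31.4 CPM in control libraries. Whether counting used the strand is not stated in the labels or headers used here, so reads of Tuba4a and Stk16 cannot be told apart where they overlap.

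**Figure D3:**
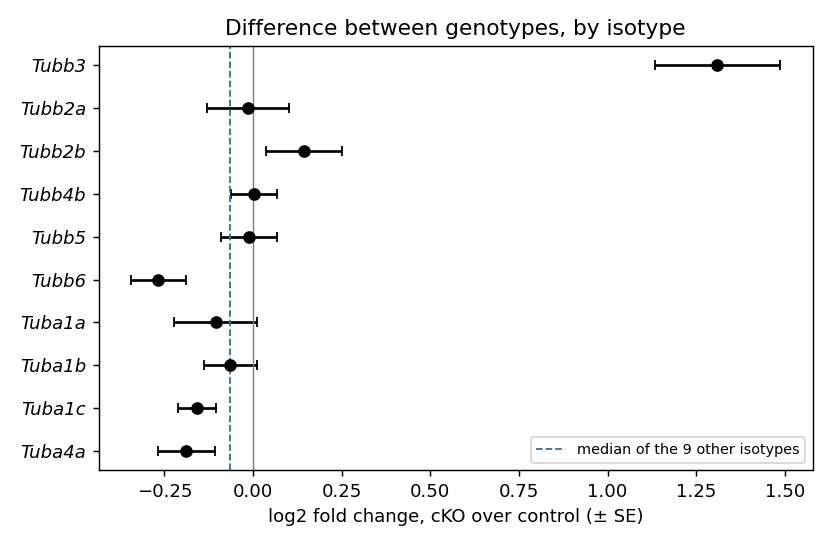
Log2 fold change of cKO over control cells with its SE (horizontal axis) for each tubulin gene (vertical axis), from 3 libraries of each genotype; the dashed line is the median of the 9 isotypes other than Tubb3, -0.06. Tubb3 lies at 1.31, and the other isotypes lie between -0.27 and 0.14.

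Levels between genes were compared per transcript length, in FPKM as deposited. Tuba1b led in both genotypes, with 187 ± 21.5 FPKM in cKO cells and 194 ± 5.53 FPKM in control cells (SD, n = 3). It was followed by Tubb5, Tuba1a, Tuba1c and Tubb6, then by Tubb4b and Tubb2a close together, and then by Tuba4a, Tubb2b and Tubb3. The order of means was the same in both genotypes apart from Tubb4b and Tubb2a, which changed places within their spread. Ranges over libraries overlapped between neighbours for Tubb5 and Tuba1a and for Tubb4b and Tubb2a in both genotypes, and for Tuba1a and Tuba1c in cKO cells alone. Tubb3 stood last in every library: its cKO range, 3.22 to 4.76 FPKM, lay below the 6.58 to 8.73 FPKM of Tubb2b, the next isotype in that order.

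As a share of the summed FPKM of the 6 beta-tubulins, Tubb3 made up 1.23%, 1.49% and 1.21% in cKO libraries and 0.536%, 0.493% and 0.506% in control libraries. Its mean share was 1.31 ± 0.160% in cKO cells and 0.511 ± 0.022% in control cells, a difference of 0.799 percentage points. Tubb5 held the main share, 45.4 ± 1.72% in cKO and 44.0 ± 1.38% in control cells, and Tubb6 held 23.0 ± 2.87% in cKO and 26.5 ± 2.57% in control cells. Apart from Tubb3, Tubb2b was the only beta-tubulin whose share did not overlap between genotypes, at 2.60 ± 0.135% in cKO and 2.27 ± 0.0148% in control cells. Among alpha-tubulins Tuba1b made up 46.1 ± 0.24% in cKO and 44.9 ± 0.26% in control cells, without overlap, while the shares of Tuba1a, Tuba1c and Tuba4a overlapped. In CPM, Tubb2b and Tuba1b each overlapped between genotypes. Each shares transcript windows with other genes of its sum, so its share depends on how such reads were counted. Summed tubulin levels overlapped between genotypes. The 6 beta-tubulins gave 287 ± 28 FPKM in cKO and 296 ± 5.95 FPKM in control cells, and the 4 alpha-tubulins gave 405 ± 45.4 FPKM in cKO and 431 ± 14.1 FPKM in control cells.

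**Figure D4:**
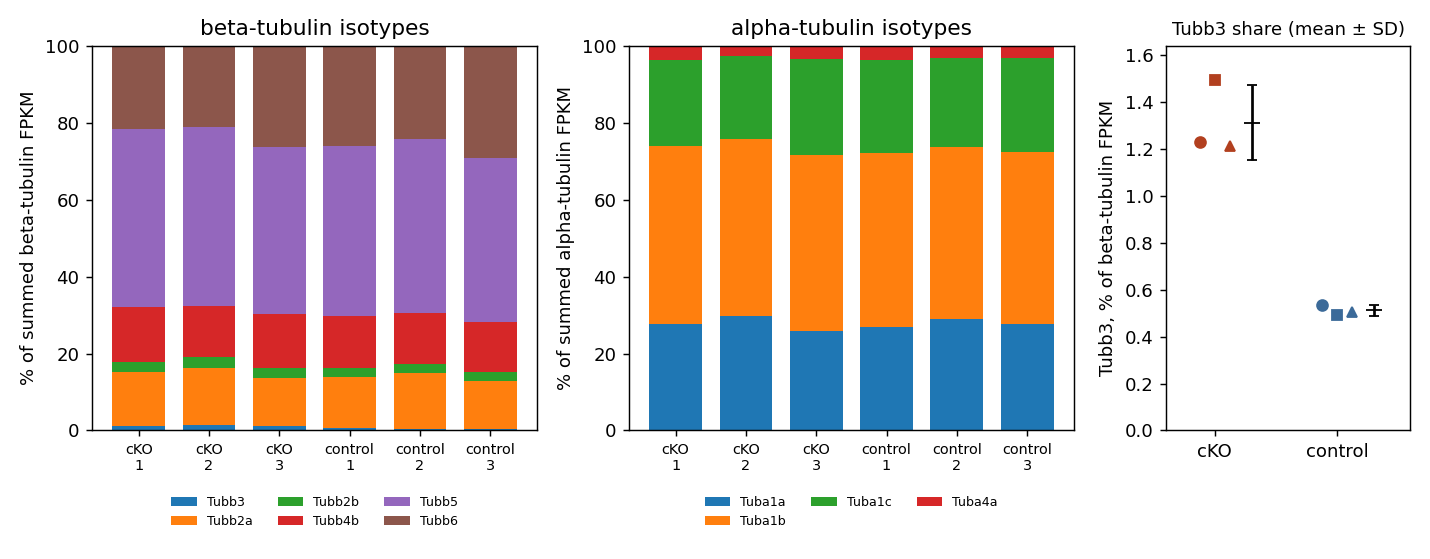
Share of each isotype in the summed beta-tubulin FPKM (left) and alpha-tubulin FPKM (middle) of each library, in percent, and the share of Tubb3 among beta-tubulins by library with mean ± SD (right). Tubb3 is the thin lowest band of the left bars; its share is 1.21% to 1.49% in cKO and 0.493% to 0.536% in control libraries.

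Among the cKO libraries, most isotypes were high or low in the same ones. Replicate 2 had the highest CPM for 8 of 10 isotypes and replicate 3 the lowest for 8 of 10. The exceptions were Tubb6 and Tuba4a in both counts. Of the 10431 tested genes of at least 5 CPM, cKO replicate 2 was the highest for 36.3% and cKO replicate 3 the lowest for 31.6%. Tuba1a, Tuba1b and Tuba1c share transcript windows with one another, as do Tubb2a and Tubb2b, so the isotypes are not fully separate observations. Among the control libraries the highest value fell in replicate 1 for 4 isotypes, in replicate 2 for 5 and in replicate 3 for 1. In cKO cells, replicate 2 exceeded replicate 3 by 1.45-fold for Tubb3, 1.42-fold for Tuba1a, 1.39-fold for Tubb2a and 1.26-fold for Tubb5. Over all 10 isotypes the median log2 difference between these 2 cKO libraries was 0.32. Among the 10431 tested genes of at least 5 CPM, 4945 were higher in cKO replicate 2 than in cKO replicate 3, and the median log2 difference was -0.01. The coefficient of variation of Tubb3 was 21.2% over cKO and 6.85% over control libraries, the largest of the set in cKO cells. The same libraries differed in other respects: the summed CPM of 12 osteoclast markers was 10532, 9923 and 13818 in cKO replicates 1 to 3, and that of 7 stromal markers was 3943, 5000 and 3120. The part of these differences in the tubulin values was not tested.

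Tubb3 itself was set against genes of at least 5 CPM, as a description, by the Pearson correlation of log2 CPM over the 6 libraries. The isotypes, predicted and clone-named genes, genes of mitochondrial DNA and genes with a repeated symbol were left out. The libraries fall into 3 of each genotype and share a library protocol. Of 9928 genes, the 5 most alike were Sfswap, a splicing regulator (r = 0.996), Procr, the endothelial protein C receptor (0.993), Nt5c2, a cytosolic nucleotidase (0.991), Daglb, a lipase that forms an endocannabinoid (0.990), and Ccr2, the monocyte chemokine receptor (0.988). In all 5 the cKO libraries lay above the control libraries and cKO replicate 2 was the highest. Sizes differed: the log2 fold change was 1.93 ± 0.16 for Ccr2, 0.57 ± 0.08 for Daglb, 0.44 ± 0.07 for Procr, 0.13 ± 0.06 for Sfswap and 0.11 ± 0.06 for Nt5c2. With the mean of each genotype removed, r was 0.984 for Sfswap, 0.914 for Daglb, 0.909 for Procr, 0.880 for Nt5c2 and 0.824 for Ccr2. Because these genes were picked for likeness to Tubb3 over the same libraries as the contrast, their shared pattern is no separate observation. The correlations with genotype means removed are not independent of that choice either, and no test is given for these genes. Among the other isotypes the highest correlation with Tubb3 was 0.71, for Tubb2b, and the lowest -0.84, for Tuba1c.

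The protein-coding genes listed in these data within 50 kb of Tubb3 were examined beside it. A gene without a row was not examined, so the nearest listed gene need not be the nearest gene. Def8, whose product acts in lysosome positioning and the osteoclast ruffled border, begins 1512 bases beyond Tubb3 and had 32.1, 30.9 and 31.3 CPM in cKO libraries and 27.7, 24.2 and 21.9 CPM in control libraries (0.35 ± 0.09, adjusted p = 0.0664). Tcf25, which lies 7589 bases from Tubb3 on its other side, had 231, 236 and 240 CPM in cKO libraries and 222, 209 and 217 CPM in control libraries (0.13 ± 0.05, adjusted p = 0.259). Both were higher in every cKO library without passing edgeR's test over all genes, while DESeq2 called Def8, and both had smaller log2 fold changes than Tubb3. Spire2, an actin nucleator gene 41909 bases away, was below 1 CPM in every library (adjusted p = 0.577).

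Other genes of the microtubule system were taken from 7 lists of 160 genes, none of them among the 10 isotypes, of which 155 were listed and 150 tested. By edgeR's quasi-likelihood test 2 of 150 rose and 1 fell, against 2.42% of all genes tested, and 33 of 150 had an unadjusted p under 0.05, against 17.2% of all genes tested. DESeq2 called 7 and limma-voom 1. The median log2 fold change was 0.02, against 0.0015 over all genes. The genes that passed were the kinesins Kif21b and Kif1a and the chaperonin subunit Cct3, and each of these calls depended on the libraries included.

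Motor proteins carry cargo along microtubules. Of 32 motor genes tested, 2 rose and 0 fell, with a median of -0.015. Kif21b, a kinesin that restrains microtubule growth, had 96.9, 90.7 and 96.8 CPM in cKO libraries and 77.9, 79.8 and 74.0 CPM in control libraries (0.30 ± 0.06, adjusted p = 0.0260). Kif1a, a kinesin known for carrying synaptic vesicle precursors in neurons, had 6.83, 6.34 and 4.90 CPM in cKO libraries and 2.63, 2.67 and 3.87 CPM in control libraries (0.98 ± 0.20, adjusted p = 0.0302). Neither gene's libraries overlapped between genotypes. Leaving out a library in turn ended the call of each in 4 of 6 cases: Kif21b without any of the control replicates or cKO replicate 1 (adjusted p up to 0.154), and Kif1a without replicate 1 or 2 of either genotype (up to 0.194). Kif3c (0.26 ± 0.08, adjusted p = 0.119) and the dynein light chain gene Dynll1 (-0.27 ± 0.08, adjusted p = 0.122) did not pass.

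Newly made tubulin is folded by the chaperonin CCT, with prefoldin delivering it and the tubulin cofactors assembling the dimer, and TTC5 takes part in the decay of tubulin mRNA when free dimers accumulate. Of the 23 genes of this list 0 rose and 1 fell, while 21 of 23 had a negative log2 fold change, 10 had an unadjusted p under 0.05 and the median was -0.15. Most of the list, 20 of 23, averaged at least 10 CPM; of all tested genes at 10 to 100 CPM and above 100 CPM, 42.6% and 41.2% had positive values, with a median of -0.03 in both ranges. Cct3 had 119, 126 and 129 CPM in cKO libraries and 146, 146 and 156 CPM in control libraries (-0.26 ± 0.06, adjusted p = 0.0415). Its call held in 1 of 6 fits that left a library out, that without cKO replicate 3, and the adjusted p reached 0.248 in the others. Cct6a (-0.23 ± 0.06, adjusted p = 0.0550), Cct8 (-0.19 ± 0.06, 0.145) and Pfdn4 (-0.41 ± 0.14, 0.153) were lower in every cKO library than in any control library without passing edgeR's test; DESeq2 called Cct6a beside Cct3. Ttc5 had a log2 fold change of -0.0070 ± 0.084.

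In the remaining lists 0 genes passed edgeR's test and 0 passed limma-voom, while DESeq2 called Dclk1, Mapre1 and Haus8. Of 33 stabilisers and plus-end proteins 6 had an unadjusted p under 0.05, with a median of 0.08; the log2 fold change of the microtubule-binding kinase gene Dclk1 was 0.49 ± 0.13 (adjusted p = 0.0731) and Mapre1, which encodes the end-binding protein EB1, -0.20 ± 0.06 (0.0956). Mapt, which encodes tau, had 1.22 ± 0.42 and Map2, another neuronal microtubule-associated protein gene, 0.89 ± 0.33, both at levels below 2 CPM in every library. Of 16 destabilisers and severing enzymes 3 had an unadjusted p under 0.05, with a median of 0.20; among them were the mitotic depolymerase Kif2c (0.43 ± 0.14) and the stathmin Stmn2 (1.66 ± 0.59). Of 20 nucleation genes 4 had an unadjusted p under 0.05, with a median of 0.06, and the augmin subunit Haus8 had 0.27 ± 0.07 (adjusted p = 0.0795). Of 20 tubulin-modifying enzymes 1 had an unadjusted p under 0.05, the polyglutamylase Ttll4 (0.21 ± 0.09), and the acetyltransferase Atat1 had 0.29 ± 0.14. Of 6 other tubulins tested 0 had an unadjusted p under 0.05; the beta-tubulin Tubb4a had 0.41 ± 0.23 and the platelet beta-tubulin Tubb1, below 1 CPM in every library, 0.88 ± 0.58.

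Because Tubb3 is a common stain for neurons, 19 neuronal markers were examined beside it. Of these, 15 were tested, and 0 rose and 0 fell by edgeR's test. An unadjusted p under 0.05 was found for 6 of the 15, against 17.2% of all genes tested. DESeq2 called 1, Eno2, and limma-voom called 0. The median log2 fold change was 0.76, and 14 of 15 values were positive. Of the 15 genes, 8 averaged below 1 CPM, and the 3603 tested genes below that level had a median of 0.21 with 63.3% positive. The other markers averaged at least 1 CPM. All tested genes at 1 to 10 CPM had a median of 0.05 with 56.4% positive. Those at 10 to 100 CPM had a median of -0.03 with 42.6% positive. The neuron-specific enolase gene Eno2 had 8.06, 13.2 and 9.17 CPM in cKO libraries and 4.84, 7.18 and 5.49 CPM in control libraries, without overlap (0.80 ± 0.20, adjusted p = 0.0691). The synaptic gene Snap25 had 2.50, 3.15 and 2.33 CPM in cKO libraries and 1.71, 0.837 and 2.18 CPM in control libraries (0.76 ± 0.31, adjusted p = 0.246). The listed genes that did not pass the filter on low counts, and so were not tested, were Rbfox3, Dcx, Elavl4 and Prph. Rbfox3 had at most 6 reads in a cKO and 21 in a control library, and Dcx at most 4 in either. Elavl4 had at most 10 in a cKO and 9 in a control library. Prph had 0 in every cKO library and at most 4 in a control library. Summed over the 19 markers, the level was 71.2 to 91.7 CPM in cKO and 60.6 to 69.6 CPM in control libraries. Their part in the Tubb3 value was not tested.

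**Figure D5:**
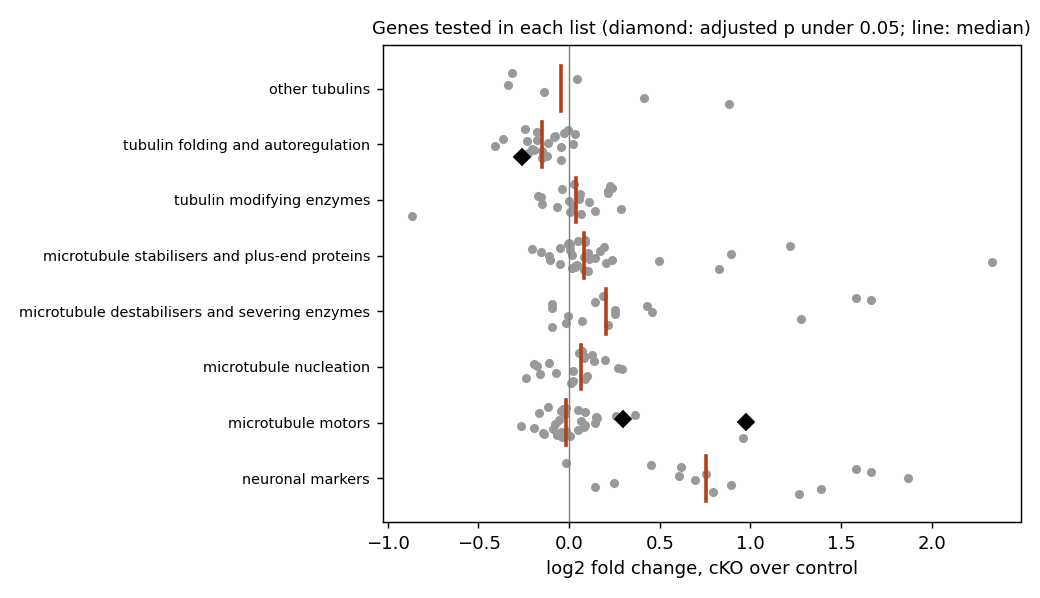
Log2 fold change of cKO over control cells (horizontal axis) for each tested gene of the 7 microtubule lists and of the neuronal markers (vertical axis); red lines mark the median of a list and diamonds genes with an adjusted p under 0.05. The 3 diamonds are Cct3, at -0.26, and Kif21b and Kif1a, at 0.30 and 0.98; the median of the neuronal markers is 0.76.

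Markers of other cells and of cell division were examined beside the isotypes, and their part in the tubulin values was not tested. Of 8 neutrophil markers tested, 4 rose: Ngp (1.42 ± 0.14, adjusted p = 0.000311), Ltf (1.33 ± 0.13, 0.000345), S100a9 (1.16 ± 0.17, 0.00479) and S100a8 (0.88 ± 0.20, 0.0401, a call kept in 1 of 6 fits that left out a library). Of the 8 tested, 6 had positive and 2 negative values, with a median of 1.02, and 3 averaged below 1 CPM. The summed level of all 10 listed was 51.5 to 67.2 CPM in cKO and 23.2 to 30.1 CPM in control libraries. Elane, which did not pass the filter on low counts, had 0, 10 and 4 reads in cKO and 0, 45 and 7 in control libraries. Of 23 cell cycle genes 2 rose by edgeR's test, Mki67 (0.49 ± 0.08, adjusted p = 0.00753) and Cenpf (0.60 ± 0.13, 0.0316), and DESeq2 called 6, adding Bub1, Ccna2, Cenpe and Top2a. The list had a median of 0.19 and sums of 736 to 825 CPM in cKO and 626 to 691 CPM in control libraries; leaving out control replicate 1, control replicate 3 or cKO replicate 1 ended both calls, and leaving out cKO replicate 2 ended that of Cenpf. Of 12 osteoclast markers 0 passed by edgeR, DESeq2 or limma-voom, 3 had an unadjusted p under 0.05 and all 12 had negative values, with a median of -0.35. Without cKO replicate 3, edgeR called 6 of 12, namely Acp5, Ctsk, Mmp9, Ocstamp, Dcstamp and Nfatc1. Their sums were 9923 to 13818 CPM in cKO and 13229 to 16892 CPM in control libraries, and Acp5, which encodes tartrate-resistant acid phosphatase, had -0.56 ± 0.15 (adjusted p = 0.125). Of 12 macrophage markers 2 fell, Lyz2 and the complement gene C1qa (-0.45 ± 0.08, adjusted p = 0.0126; lost in 3 of 6 fits that left out a library), and the list summed to 16275 to 16584 CPM in cKO and 24833 to 28624 CPM in control libraries. Most of that gap was Lyz2, the Cre locus. The other 11 markers summed to 8423 to 8836 CPM in cKO and 8802 to 9708 CPM in control libraries, which overlap. DESeq2 also called C1qb, lower in cKO cells (-0.27), and Mertk, higher in cKO cells (0.23). Of the 12 markers 9 had negative and 3 positive values in edgeR's fit, with a median of -0.10.

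Of 4 megakaryocyte and platelet markers tested, 1 fell, the platelet factor gene Pf4 (-0.58 ± 0.12, adjusted p = 0.0355; lost in 3 of 6 fits that left out a library), and the list sum was 31.5 to 39.0 CPM in cKO and 43.2 to 57.3 CPM in control libraries. All 7 stromal markers had positive values, with a median of 0.35; 0 passed edgeR's test, 2 had an unadjusted p under 0.05, DESeq2 called Pdgfra and Pdgfrb, and edgeR without cKO replicate 3 called 1, Pdgfrb. Their sums were 3120 to 5000 CPM in cKO and 3335 to 3884 CPM in control libraries. Schwann cell and glial markers summed to 105 to 122 CPM in cKO and 100 to 123 CPM in control libraries, nearly all from Mbp, and the glial regulator Sox10 was at 0 in 3 of 6 libraries. B cell, T and NK cell, endothelial and erythroid markers had 0 calls by edgeR, DESeq2 or limma-voom among 2, 2, 3 and 1 genes tested, 0 with an unadjusted p under 0.05, and each list summed to at most 14.7 CPM in a cKO and 14 CPM in a control library.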

How the data were processed

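Whole-number read counts per gene, without normalization, and FPKM values were deposited by the authors for each library, per the file headers. Per the submitters' processing notes, cutadapt 1.9 and build mm10 were used. Alignment, counting, annotation and strand settings are not given in the labels or headers, although the labels' protocols describe a dUTP library, which marks strand.

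Counts were tested with edgeR 4.0.16 in R 4.3.3 on 3 cKO and 3 control libraries: genes kept by filterByExpr (min.count 10, min.total.count 15), TMM scaling, robust quasi-likelihood F tests and Benjamini-Hochberg adjustment over all genes tested, with calls at an adjusted p under 0.05. The SE is the log2 fold change divided by the square root of F. CPM are counts after TMM scaling. FPKM were used for levels between genes and for shares. The procedure was tested on simulated counts. DESeq2 1.42.0 and limma 3.58.1 served as alternatives. Every pair of same-genotype libraries exceeded sampling noise (chi-square over degrees of freedom 16.2 to 36.2), and each was kept as its own library in the fits. This comparison cannot tell separate mice or cultures from repeat libraries of the same RNA. The SE and SD reflect the spread between libraries, and counts near 0 also carry counting error. PCR reads without molecular identifiers are not independent molecules, so read numbers can understate that error.

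The isotypes and gene lists were chosen with earlier results of these data known. Genes named are the 10 isotypes, Slc11a2 and Lyz2. Of each list, up to 4 genes by smallest unadjusted p were named, and every call in a list with at most 6. Also named are coding neighbours of Tubb3 within 50 kb that have a row, and the 5 genes most alike to Tubb3. Ttc5, Ctsk, Csf1r, Mbp and the markers at or near 0 were named for their roles, and genes called only under an alternative for those calls. Both kinds were named after their values were seen. Coding sequences, identities and shared windows were computed with Python 3.11.15 and Biopython 1.88 from GENCODE M21 transcripts on GRCm38, and coordinates are those of the files on mm10. The coding ends of the alpha-tubulins and the tests of the glial markers are not reported here.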

Additional observations from a re-analysis of the deposited data

How the results depend on the processing

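The fitted log2 fold change of Tubb3 lay between 1.12 and 1.41 over 12 alternatives, and leaving out a library gave, in place of 1.31, values between 1.12, without cKO replicate 2, and 1.41, without cKO replicate 3. Its share of beta-tubulin FPKM was higher in cKO cells by 0.799 percentage points. The difference was 0.560 with summed CPM in place of FPKM, 1.0 with Tubb6 left out of the sum, and 0.707 to 0.850 with each library left out in turn. The median of the other 9 isotypes, -0.06, ranged from -0.14 without cKO replicate 2 to 0.02 with a trend on transcript length removed, and was 0.01 without cKO replicate 3. The sign turned in 5 of 12 alternatives for Tubb2a, 4 for Tubb5, 3 for Tubb4b, 2 for Tuba1b and 1 for Tuba1a. It turned in 0 of 12 for Tubb3, Tubb2b, Tubb6, Tuba1c and Tuba4a.

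Over all genes, the 407 calls became 800 with DESeq2, 266 with limma-voom, 404 with DESeq2's size factors, 437 without a filter on low counts and 359 with the length trend removed. They were 59 to 624 with a library left out (91, 166 and 116 without control replicates 1, 2 and 3, and 59, 235 and 624 without cKO replicates 1, 2 and 3). The 3 calls among the 150 microtubule genes became 7 with DESeq2, 1 with limma-voom and 0 to 4 with a library left out; limma-voom kept Kif21b only. Neuronal calls, 0 of 15, became 1 with DESeq2 and 0 to 1 with a library left out, namely Ncam1 without cKO replicate 3. Among 74 other genes, 888 alternatives gave 815 values on the same side of the threshold, 37 that lost and 36 that gained a call. The sign turned in 9 of them, in Trac, Hba-a1 and Mbp, with 0 calls on either side.

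Whether replicate numbers pair the samples is not stated in the labels, and deviations from means of 3 libraries cannot decide it. Deviations of same-numbered libraries correlated at -0.077, 0.050 and 0.262 over 9454 genes. Those of differently numbered libraries correlated at -0.222 to 0.147, and not every library correlated best with its own number. With the replicate block the calls were 673 over all genes, 6 among microtubule genes, 1 among neuronal markers, Eno2, and 8 of 12 among osteoclast markers, Acp5, Calcr, Ctsk, Dcstamp, Mmp9, Nfatc1, Ocstamp and Oscar. The block also called Def8 and Cct6a. Genes below 1 CPM, among them most neuronal markers, rest on few reads.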
